A study of Mus musculus with 6 samples.

Results

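Hox genes encode homeodomain transcription factors that give cells positional identity along the body axis, and in blood they are best known for acting in stem and progenitor cells. The mouse genome carries them in clusters named a, b, c and d, in which the number of a gene marks its paralog group, that is, its place from the 3′ end (low numbers) to the 5′ end (high numbers) of the cluster. In bone marrow, genes of the Hoxa and Hoxb clusters are known to be active in stem cells and to be turned down as cells mature, and Hoxa9 is known for driving leukaemia when it stays on. Hox proteins bind DNA together with cofactors of the TALE family, which comprises the Pbx, Meis and Pknox proteins.

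Counts of 39 Hox genes were examined, taken as every row whose symbol is Hox followed by a cluster letter and a number, out of 47561 rows in each table, with opposite-strand transcripts left out. The RNA came from LT-HSCs, the long-term repopulating stem cells of blood, sorted from mouse bone marrow, with 3 libraries labelled Piezo1 KO and 3 labelled control, whose genotype is given as WT. Piezo1 encodes a mechanically gated calcium-permeable channel. The labels give no age, sex, strain, sorting gate or deleted exon, nor whether the KO is confined to blood cells, and they do not say that each library came from its own mouse. P-values therefore describe the spread among these 6 samples only, and part of that spread may be technical. The genotype field of KO replicates 2 and 3 names Piezo2 and Piezo3, and the groups follow the titles, which give Piezo1 KO for all 3. Total counts per library lay between 59435258 and 64653956.

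Piezo1 itself had 4.28, 7.99 and 9.46 CPM in KO libraries, against 16.95, 7.02 and 24.3 CPM in control libraries, so the library labelled control replicate 2 lay within the KO range and the groups overlapped. The Piezo1 log2 fold change was -1.15 (SE 0.56), with an edgeR adjusted p = 0.508. Every direction given for KO against control therefore rests on the labels. CPM are counts scaled to a common library size after adjustment for library composition. Of 10 stem cell markers, all had counts, and their summed level was 840 to 1110 CPM in KO and 953 to 1281 CPM in control libraries. The members went different ways, with 3 above 0 and 7 below 0 in log2 fold change. Ly6a, the gene of the surface antigen Sca-1, was lower in KO without overlap, with 89.2, 206 and 72.8 CPM in KO libraries, against 324, 373 and 284 CPM in control libraries, and Procr, another surface marker, had 9.68, 26.7 and 4.99 CPM in KO libraries, against 67.1, 56.5 and 22.6 CPM in control libraries. Kit, the stem cell factor receptor gene, was higher in KO without overlap, with 323, 293 and 344 CPM in KO libraries, against 106, 223 and 226 CPM in control libraries, and so was Tek, with 28.5 to 41.01 CPM in KO and 4.80 to 27.8 CPM in control libraries. Like Procr, the other 6 overlapped. Among them were the transcription factor genes Hlf, at 86.4 to 129 CPM in KO and 102 to 141 CPM in control libraries, and Mecom, at 42.7 to 72.5 CPM in KO and 44.2 to 81.7 CPM in control libraries. Of 3 markers listed as low in LT-HSCs, all had counts. Their summed level was 21.06 to 66.6 CPM in KO and 25.999 to 42.8 CPM in control libraries. Cd48 had 46.3, 12.2 and 54.95 CPM in KO libraries, against 17.4, 32.3 and 19.3 CPM in control libraries. Flt3 had 5.30 to 11.7 CPM in KO and 8.57 to 10.51 CPM in control libraries. Cd48 and Flt3 overlapped between the groups. Il7r had 3.21 CPM in KO replicate 2 and 0 in every other library. For B cell, macrophage and endothelial markers, the summed levels overlapped between the groups. Markers of some other cells moved with the groups or with 1 library. The summed level of 8 erythroid markers was 8228 to 26280 CPM in KO and 2564 to 7565 CPM in control libraries. Within it the 4 globin genes were higher in KO without overlap, Alas2 overlapped between the groups, and Car1 and Klf1 had negative log2 fold changes, of -1.22 with an unadjusted p of 0.029 for Car1 and -0.67 for Klf1. The summed level of 6 megakaryocyte markers was 1671 to 2486 CPM in KO and 772 to 1041 CPM in control libraries, and 4 of them, Pf4, Itga2b, Gp1bb and Vwf, were higher in KO without overlap. Gp9 and Ppbp overlapped between the groups. Among all tested genes, 10.7% lay higher in KO without overlap and 8.76% lower. Of 6 T and NK cell markers, Nkg7 had 246 to 249.997 CPM in KO and 127 to 208 CPM in control libraries, while Cd8a was at 0 in all 6 libraries and Cd3d, Cd3e and Cd3g were at 0 in KO replicates 1 and 3. KO replicate 2 had 8.11 CPM of Cd3d, 0.116 CPM of Cd3e and 4.50 CPM of Cd3g. In control libraries these 3 genes were at 0, apart from 0.593 CPM of Cd3d in control replicate 3. Cd4 had 0, 0.282 and 1.12 CPM in KO libraries, against 0, 2.62 and 2.21 CPM in control libraries. Its log2 fold change was -1.78, and the groups overlapped. Control replicate 3 held 12097 CPM of 8 granulocyte markers, against 6.05 to 1082 CPM in the KO libraries and 18.0 to 59.2 CPM in the other control libraries. In bulk RNA, fewer cells of a type and less RNA per cell cannot be told apart, and the part of these cells in the Hox values was not tested. Of the 5 stroma markers, whose cells can carry other Hox genes, Lepr and Adipoq were at 0 in all 6 libraries, and their summed level was 5.05 to 8.45 CPM in KO and 0 to 4.77 CPM in control libraries.

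Hox paralogs resemble each other. The homeobox, the 180 bases that encode the DNA-binding homeodomain, was therefore compared between Hoxa4 and its Hoxc paralog. Hoxa4 was the Hox gene with the lowest p in the KO comparison, and the pair is 1 example of how far paralog sequences differ. Hoxa4 had counts in 4 libraries and Hoxc4 in 1. In the lines below capitals mark the bases of Hoxc4 that differ from Hoxa4 at the same position.
Hoxa4: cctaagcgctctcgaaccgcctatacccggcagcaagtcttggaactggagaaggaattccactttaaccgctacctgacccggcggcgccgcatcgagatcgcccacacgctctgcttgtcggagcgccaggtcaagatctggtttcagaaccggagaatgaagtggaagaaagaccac
Hoxc4: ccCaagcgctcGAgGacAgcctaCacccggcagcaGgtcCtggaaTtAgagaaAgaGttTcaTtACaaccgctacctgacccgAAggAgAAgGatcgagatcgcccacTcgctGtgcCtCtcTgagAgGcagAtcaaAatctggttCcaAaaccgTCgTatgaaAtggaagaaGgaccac
They lie at chr6:52190483-52190662 on the minus strand for Hoxa4 and at chr15:103035663-103035842 on the plus strand for Hoxc4 (GENCODE M21, GRCm38), each within 1 coding exon. Hoxc4 differed from Hoxa4 at 38 of the 180 bases, an identity of 78.9%, and other paralog pairs were closer. Over pairs of the same paralog group, homeobox identity ran from 67.2% to 93.9%. It was highest for Hoxa3 and Hoxb3, which both had counts in all 6 libraries. Over all 569 pairs of Hox genes from different clusters, the longest stretch that GENCODE transcripts shared without a mismatch was 52 bases, between Hoxa6 and Hoxb4, and 2 pairs shared 50 bases or more. No source used here states the read length, so how many reads could fall on such stretches was not computed.

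Reads fell almost entirely on the Hoxa and Hoxb clusters. Of the 39 genes, 18 had at least 1 count in some library, and 10 had counts in all 6. Hoxa, at chr6:52155367-52260880 (RefSeq, GRCm38.p6), had 9 of its 11 genes with a count and held 28120 of the 34323 Hox counts. Hoxb, at chr11:96194316-96368254, had 7 of 10 genes and 6162 counts. Hoxc, at chr15:102921131-103036856, had 2 of 9 genes and 41 counts, and Hoxd, at chr2:74668225-74765142, had 0 of 9 genes and 0 counts. A count of 0 allows up to 3 counts per library, or 0.0440 to 0.0539 CPM, which covers counting error only. Hoxd was at 0 in all 3 KO and all 3 control libraries. In Hoxc, Hoxc4 had 33 counts in KO replicate 3 and Hoxc6 had 8 counts in KO replicate 2, with 0 counts of both genes in every other library. Both are below the count filter and were not tested.

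**Figure D1:**
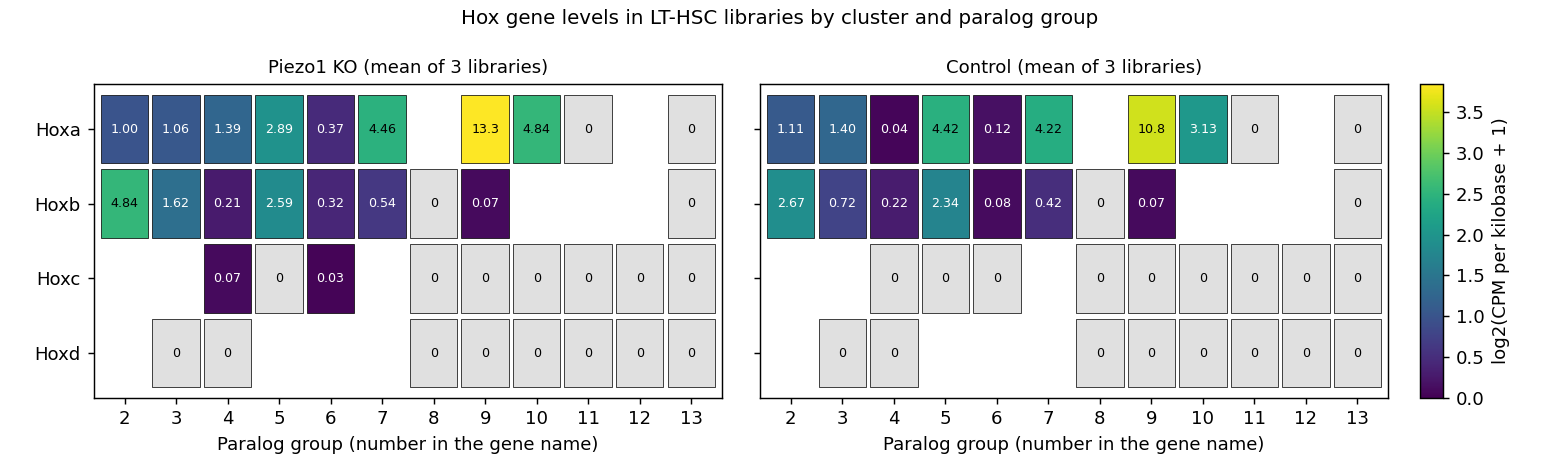
Mean level of each Hox gene in KO (left) and control (right) libraries, in CPM per kilobase of annotated exon, by cluster (rows) and paralog groups 2 to 13 (columns). Colour shows log2(CPM per kilobase + 1), grey boxes have 0 counts in the group, and blank places have no gene. The coloured boxes lie in the Hoxa and Hoxb rows up to paralog group 10, apart from the faint Hoxc4 and Hoxc6 boxes of the KO panel, with Hoxa9 at 13.3 in KO and 10.8 in control libraries.

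Within Hoxa and Hoxb the counts stopped at defined positions. In Hoxa the genes from Hoxa2 to Hoxa10 carried the counts, while Hoxa11 and Hoxa13, the genes at the 5′ end known for limb and genital development, had 0 counts in all 6 libraries. In Hoxb the genes from Hoxb2 to Hoxb7 carried them, and Hoxb1, Hoxb8 and Hoxb13 had 0 counts in all 6 libraries. Hoxb9 had 32 counts in KO replicate 1, and 33 and 3 counts in control replicates 2 and 3. KO replicate 1 was the only 1 of the 6 libraries with counts of Hoxa11os, the transcript opposite Hoxa11, with 69 counts. The number of Hox genes with a count was 16, 15 and 14 in KO replicates 1, 2 and 3, and 12, 14 and 11 in control replicates 1, 2 and 3, so KO replicate 3 and control replicate 2 were equal and the groups overlapped by that tie.

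Hoxa9, a group 9 factor of stem and progenitor cells, stood above the rest. It lies at chr6:52223097-52227370 on the minus strand. Per kilobase of exon its level was the highest of the 14 tested Hox genes in 6 of 6 libraries, with 9.42, 11.7 and 18.9 CPM per kilobase in KO and 9.02, 14.3 and 9.19 CPM per kilobase in control libraries. It exceeded the next gene by 2.01-fold, 1.44-fold and 4.28-fold in KO replicates 1, 2 and 3 and by 1.79-fold, 1.80-fold and 1.94-fold in control replicates 1, 2 and 3. The next gene was not the same each time, being Hoxa7, Hoxb2 and Hoxa10 in the KO and Hoxb2, Hoxa5 and Hoxa7 in the control libraries. Of all Hox counts, Hoxa9 took 34.6%, 35.5% and 52.5% in KO and 43.3%, 41.4% and 43.8% in control libraries.

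Below Hoxa9 the order per kilobase was loose. Over the 6 libraries Hoxa7 averaged 4.34, Hoxa10 3.99, Hoxb2 3.76 and Hoxa5 3.66 CPM per kilobase, and each of the first 3 lay above the gene after it in 3 or 4 of 6 libraries, so these neighbours did not differ beyond their spread. Hoxb5, whose reporter alleles have been used to mark LT-HSCs, followed at 2.46, and it lay above the next gene in 5 of 6 libraries. Hoxa3 at 1.23, Hoxb3 at 1.17 and Hoxa2 at 1.06 CPM per kilobase formed a lower tier. Hoxa4, Hoxb7, Hoxa6, Hoxb4 and Hoxb6 lay between 0.712 and 0.201 CPM per kilobase, and each of the first 4 was above the gene after it in 3 or 4 of 6 libraries. The place of Hoxa4 differed most between groups, being rank 8 of 14 at 1.39 CPM per kilobase in KO and rank 14 at 0.0380 CPM per kilobase in control libraries. Hoxb4, known for expanding stem cells when overexpressed, was thus among the lowest of the tested Hox genes. With the longest RefSeq-linked transcript as the length in place of all annotated exon bases, the first 6 places stayed as they were, Hoxa3 and Hoxb3 changed places, and so did the order of Hoxa6, Hoxb4 and Hoxb6.

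**Figure D2:**
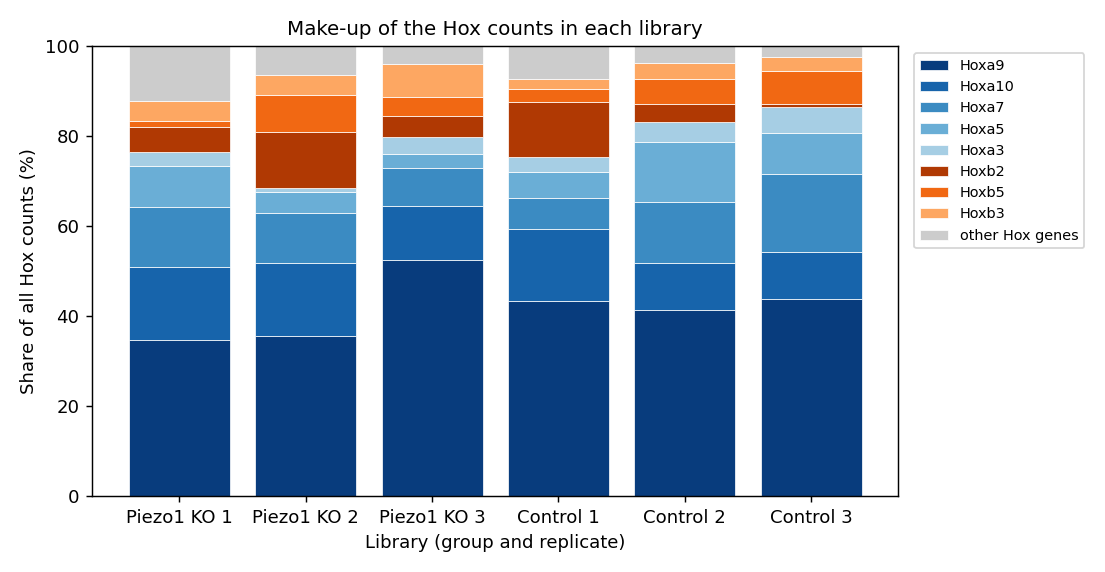
Share of all Hox counts (%) taken in each library by 8 Hox genes, with 5 Hoxa genes in blues, 3 Hoxb genes in oranges and all remaining Hox genes in grey. Hoxa9 is the largest piece in all 6 bars, and the Hoxa cluster as a whole holds 72.8% to 86.5% in KO and 80.3% to 88.2% in control libraries.

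Of the 39 genes, 14 passed the filter on low counts and were tested, and the other 25 comprised the 21 genes with 0 counts in every library and 4 sparse genes, among them Hoxb9, Hoxc4 and Hoxc6. None of the 14 differed between KO and control at an adjusted p under 0.05 in edgeR's quasi-likelihood test with Benjamini-Hochberg adjustment over 16022 genes, where the share called was 0% in each direction. The adjusted p-values of the Hox genes lay between 0.411 and 0.991. At an unadjusted p under 0.05, 1 Hox gene was higher and 0 lower, where 5.44% of all tested genes were higher and 5.59% lower. DESeq2 and limma-voom also called 0 Hox genes and each had 1 at an unadjusted p under 0.05. DESeq2 gave no adjusted p for 11 of the 14, so its count rests on 3 genes. In 10 of 14 Hox genes the log2 fold change (KO over control) was above 0, against 52.2% of all genes, and its median was 0.34, against 0.03 over all genes. Since genes enter the test through the libraries in which they are high, these counts describe the genes that passed and not the whole family.

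**Figure D3:**
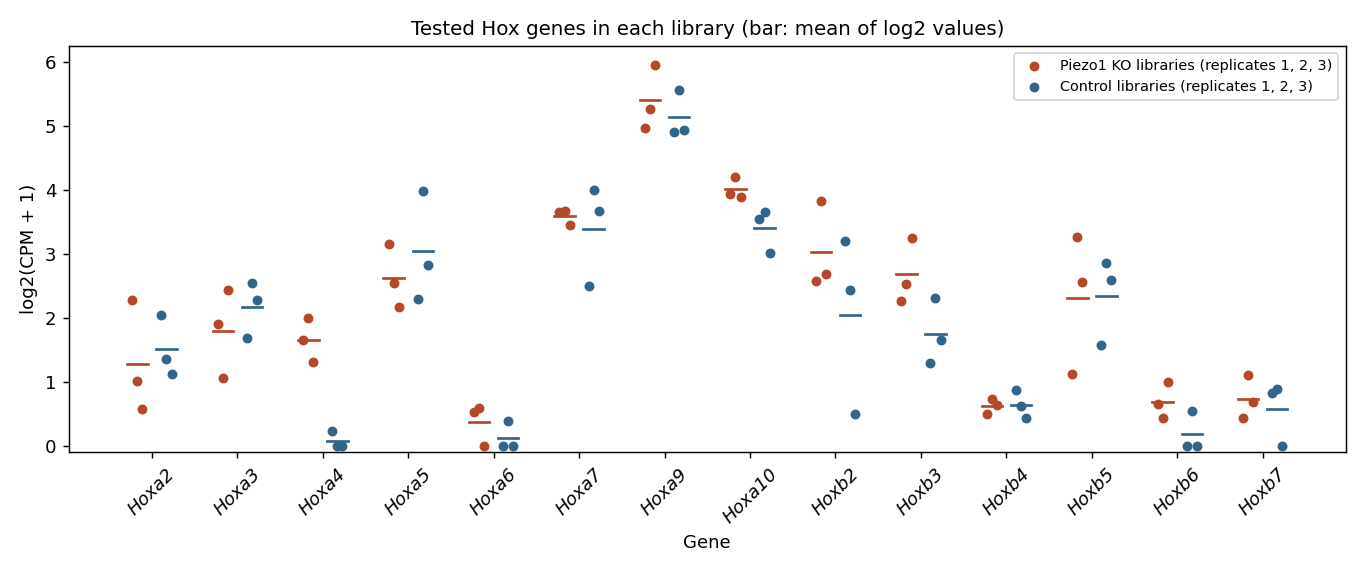
Levels of the 14 tested Hox genes in each library as log2(CPM + 1), with KO libraries left of control libraries for each gene and a bar at the mean of the log2 values. In Hoxa4 and Hoxa10 the 3 KO points lie above the 3 control points, and in the other 12 genes the points overlap.

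Hoxa4 was the gene with the lowest p. It is a group 4 gene, at chr6:52189682-52191703 on the minus strand, and had 2.16, 2.99 and 1.48 CPM in KO libraries, against 0.182, 0 and 0 CPM in control libraries. In counts these were 129, 180 and 92 in KO and 11, 0 and 0 in control libraries. All 3 KO libraries thus lay above all 3 control libraries, and the KO mean was 36.5-fold the control mean. That control mean, 0.0605 CPM, came from 1 library and lay near the 0.0440 to 0.0539 CPM that 3 counts are worth. The size of the fold is therefore uncertain, and Hoxa4 entered the test mainly through its KO libraries. The fitted log2 fold change was 5.14 (SE 1.995), a value that depends on the prior count, with an unadjusted p of 0.0354 and an edgeR adjusted p = 0.411. Without control replicate 1, the 1 control library with counts, it was 10.08, and with no count filter the unadjusted edgeR p was 0.0517. In DESeq2 the log2 fold change of Hoxa4 was 5.15 (SE 1.91), with an unadjusted p of 0.00707 and no adjusted p. In limma-voom it was 6.51 (SE 1.99) with an adjusted p of 0.281. GENCODE places 15.997% of the exon bases of Hoxa4 under the antisense gene Gm29430, and no source used here states the strand setting of the counting.

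Hoxa10, a group 10 gene next to Hoxa9 that is known in progenitor growth and in leukaemia, was the other gene without overlap. It lies at chr6:52231197-52240854 on the minus strand and had 14.4, 17.4 and 13.9 CPM in KO libraries, against 10.7, 11.7 and 7.10 CPM in control libraries. The means were 15.2 ± 1.91 CPM in KO and 9.84 ± 2.42 CPM in control libraries (SD, n = 3 each), a 1.55-fold difference. At a log2 fold change of 0.63 (SE 0.36) and an edgeR adjusted p = 0.579, Hoxa10 missed the threshold. Of all tested genes 10.7% lay higher in KO without overlap and 8.76% lower, and among the Hox genes these were 2 and 0 of 14.

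Hoxa9 overlapped between the groups. It had 30.4, 37.7 and 61.0 CPM in KO libraries, against 29.1, 46.1 and 29.6 CPM in control libraries. KO replicate 3 alone lay above every control library, and KO replicates 1 and 2 lay within the control range. Its log2 fold change was 0.30 (SE 0.34) with an edgeR adjusted p = 0.826, and without KO replicate 3 it was -0.05. The ratio of Hoxa10 to Hoxa9 counts within a library was 0.473, 0.462 and 0.228 in KO and 0.369, 0.253 and 0.240 in control libraries, which also overlapped.

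The middle Hoxa genes overlapped as well. Hoxa7, a group 7 gene at chr6:52215623-52218573, had 11.7, 11.8 and 9.91 CPM in KO libraries, against 4.66, 15.1 and 11.8 CPM in control libraries, where control replicate 1 was the low value. Hoxa5, at chr6:52201754-52204587 and known in lung and skeletal patterning, had 7.93, 4.83 and 3.50 CPM in KO libraries, against 3.93, 14.9 and 6.13 CPM in control libraries, where control replicate 2 was the high value. The log2 fold changes were 0.08 (SE 0.50) for Hoxa7 and -0.62 (SE 0.66) for Hoxa5, with edgeR adjusted p-values of 0.980 and 0.816. Leaving out that low or high control library turned both signs, to -0.27 for Hoxa7 without control replicate 1 and to 0.09 for Hoxa5 without control replicate 2. Hoxa6, the gene between them, was sparse, with 0.453, 0.515 and 0 CPM in KO and 0, 0.308 and 0 CPM in control libraries.

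The 3′ genes Hoxa2 and Hoxa3, which pattern the hindbrain and pharyngeal arches in the embryo, showed no separation. Hoxa3 had 2.73, 1.08 and 4.39 CPM in KO libraries, against 2.21, 4.82 and 3.88 CPM in control libraries. Hoxa2 had 3.84, 1.013 and 0.497 CPM in KO libraries, against 3.15, 1.57 and 1.19 CPM in control libraries. In Hoxa2 the highest and the 2 lowest values all belonged to KO libraries. The log2 fold changes were -0.41 (SE 0.79) and -0.14 (SE 1.05) with edgeR adjusted p-values of 0.916 and 0.984. Summed over the cluster, Hoxa levels were 76.0, 77.2 and 94.7 CPM in KO and 54.0, 94.4 and 59.7 CPM in control libraries, and control replicate 2 lay beside the highest KO library.

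In the Hoxb cluster Hoxb2, Hoxb3 and Hoxb5 carried most counts. Hoxb3, at chr11:96307101-96347930 on the plus strand, a gene whose overexpression has been reported to disturb lymphoid and myeloid development, had 3.79, 4.77 and 8.56 CPM in KO libraries, against 1.45, 3.97 and 2.14 CPM in control libraries. KO replicate 1 lay just below control replicate 2, and the other KO libraries lay above all control libraries. For Hoxb3 the log2 fold change was 1.18 (SE 0.70) with an edgeR adjusted p = 0.600. It was 0.75 without KO replicate 3, the library with the highest value.

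Hoxb2, a group 2 gene of hindbrain patterning at chr11:96351632-96354020, ranged widely in both groups, with 4.997, 13.2 and 5.45 CPM in KO libraries, against 8.22, 4.43 and 0.413 CPM in control libraries. KO replicate 2 was the highest library and control replicate 3 the lowest, at 23 counts. The log2 fold change was 0.86 (SE 0.99) with an edgeR adjusted p = 0.833, and it was 0.26 without KO replicate 2 and 0.32 without control replicate 3. GENCODE places 58.5% of the exon bases of Hoxb2 and 63.9% of those of Hoxb3 under exons of Hoxb3os on the opposite strand. The Hoxb3os row itself had 1.53, 2.77 and 2.101 CPM in KO and 0.330, 0.630 and 3.22 CPM in control libraries. Without a stated strand, reads of the 2 strands cannot be told apart for these genes.

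Hoxb5, at chr11:96303512-96306121, had 1.17, 8.62 and 4.92 CPM in KO libraries, against 1.98, 6.27 and 5.05 CPM in control libraries. Replicate 1 was the lowest library in each group, and the groups covered each other. In Hoxb5 the log2 fold change was 0.15 (SE 0.86) with an edgeR adjusted p = 0.979, and its sign turned in 4 of the 13 alternatives. Hoxb4, at chr11:96318267-96321638, had 0.419, 0.664 and 0.561 CPM in KO libraries, against 0.825, 0.542 and 0.359 CPM in control libraries, with 20 to 50 counts in each of the 6 libraries. Its means were 0.548 ± 0.123 CPM in KO and 0.576 ± 0.235 CPM in control libraries (SD, n = 3 each). Hoxb6 had 0.570, 0.349 and 0.994 CPM in KO and 0, 0.454 and 0 CPM in control libraries, and Hoxb7 had 0.352, 1.15 and 0.609 CPM in KO and 0.776, 0.850 and 0 CPM in control libraries. In both genes, members of paralog groups 6 and 7, the groups overlapped. The log2 fold changes of these sparse genes, Hoxa6 included, were 1.62 (SE 2.21) for Hoxa6, -0.07 (SE 0.91) for Hoxb4, 2.05 (SE 1.95) for Hoxb6 and 0.37 (SE 1.61) for Hoxb7, with edgeR adjusted p-values between 0.781 and 0.991. Summed Hoxb levels were 11.8, 28.8 and 21.1 CPM in KO and 13.3, 16.997 and 8.02 CPM in control libraries, with KO replicate 1 inside the control range.

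**Figure D4:**
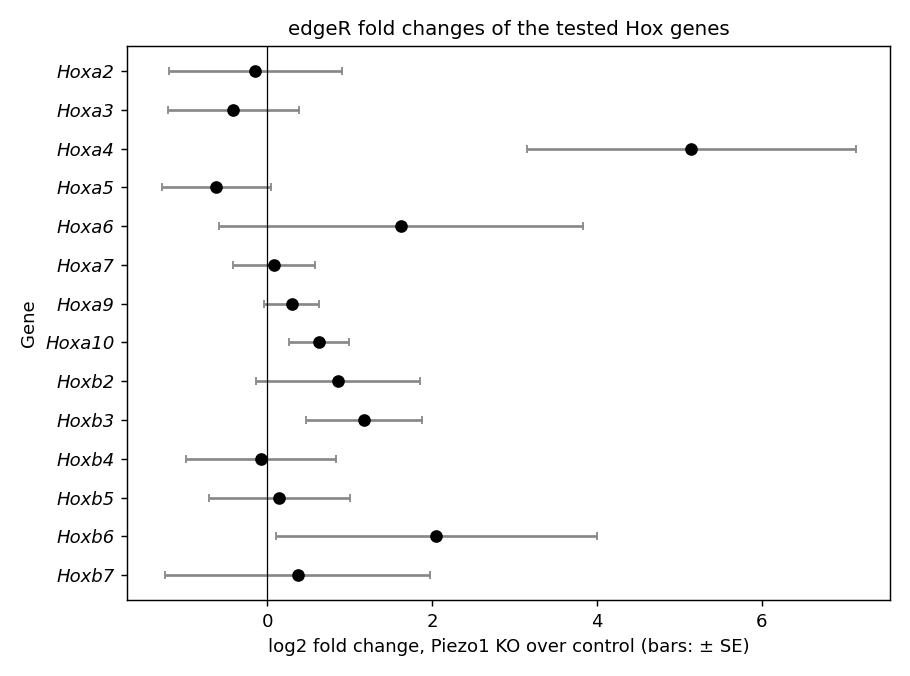
Log2 fold changes of KO over control for the 14 tested Hox genes from edgeR, with bars of 1 SE to each side and a line at 0. Hoxa4, at 5.14, lies farthest from 0 with an SE of 1.995, and the bars are wide for the sparse genes Hoxa6, Hoxb6 and Hoxb7.

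The spread between libraries of a group was large for Hox genes. The median biological coefficient of variation, edgeR's per-gene estimate of replicate spread as a fraction of the mean, was 0.825 over the 14 tested Hox genes and 0.441 over all tested genes. It was 0.314 for Hoxa9, 0.375 for Hoxa10 and 0.480 for Hoxa7, and above 1 for Hoxa2, Hoxa4, Hoxa6, Hoxb6 and Hoxb7. Among these 5, the highest value was 2.07 for Hoxa6. The 3 genes with the smallest spread were those with the most counts.

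Other transcripts of the Hox loci were examined as a list of 28, of which 14 had 0 counts in every library and 12 were tested. Of those 12, 0 were called, and at an unadjusted p under 0.05, 0 were higher and 1 lower, against 5.44% and 5.59% of all tested genes. Hotairm1, a noncoding RNA of the Hoxa cluster known from myeloid cells, had 0.704, 1.64 and 1.04 CPM in KO libraries, against 0.858, 1.07 and 2.26 CPM in control libraries. Hoxb5os, opposite Hoxb5, had 1.43, 1.51 and 1.96 CPM in KO libraries, against 4.26, 2.92 and 1.47 CPM in control libraries, and the groups overlapped. Hotair in Hoxc, Haglr in Hoxd, Hottip at the 5′ end of Hoxa, and the homeobox genes Evx1 and Evx2 next to Hoxa and Hoxd had 0 counts in all 6 libraries. Genes just outside the Hoxd cluster had counts, with Mtx2, a mitochondrial outer membrane gene, at 118, 84.5 and 104 CPM in KO and 154, 131 and 162 CPM in control libraries. Mtx2 was the lower member, with a log2 fold change of -0.54 (SE 0.19), an unadjusted p of 0.0212 and an edgeR adjusted p = 0.373. Calcoco1 and Smug1, next to Hoxc, had log2 fold changes of 1.24 and 1.29, and Snx10, next to Hoxa, had -0.31. Lnpk, on the other side of Hoxd, had 20.2, 19.4 and 24.4 CPM in KO and 19.9, 20.8 and 25.8 CPM in control libraries. Lnpk and the noncoding transcripts are outside the naming rule and were chosen after their values were seen.

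Of the 9 TALE cofactor genes, 8 were tested and edgeR called 0, and Pknox2 had 0 counts in all 6 libraries. Meis1, the partner of Hoxa9 in leukaemia, had 181, 198 and 202 CPM in KO libraries, against 134, 182 and 112 CPM in control libraries, with control replicate 2 inside the KO range. For Meis1 the log2 fold change was 0.44 (SE 0.21) with an edgeR adjusted p = 0.496. The ratio of Hoxa9 to Meis1 counts was 0.168, 0.190 and 0.303 in KO and 0.217, 0.253 and 0.265 in control libraries, and the groups overlapped. Pbx2 had 15.1, 10.497 and 24.5 CPM in KO libraries, against 4.41, 5.48 and 11.97 CPM in control libraries, and Pbx3 had 8.22, 13.98 and 12.97 CPM in KO libraries, against 3.63, 8.0003 and 9.62 CPM in control libraries. The KO libraries overlapped with the control libraries in both. The log2 fold changes of other cofactors were 0.23 for Pbx4, 0.46 for Meis2, -0.10 for Meis3 and 0.01 for Pknox1. The median log2 fold change of the 8 tested cofactors was 0.45, against 0.03 over all genes.

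**Figure D5:**
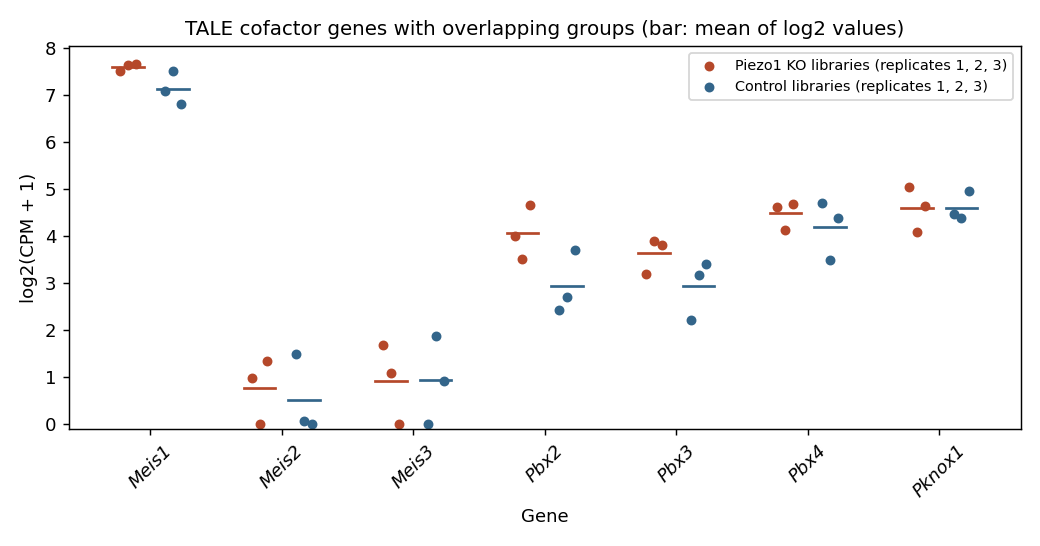
Levels of 7 TALE cofactor genes in each library as log2(CPM + 1), with KO libraries left of control libraries and a bar at the mean of the log2 values. In each of the 7 genes the KO and control points overlap, and Meis1 has the highest values.

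Regulators of Hox expression were taken as activators, Polycomb proteins and the retinoic acid pathway. Of 18 tested activators, an unadjusted p under 0.05 was reached by 5 that were higher in KO libraries and by 0 that were lower, against 5.44% higher and 5.59% lower of all tested genes, and the median log2 fold change was 0.56, against 0.03 over all genes. Kmt2a, the histone methyltransferase gene that maintains Hox expression, had 109, 98.9 and 107 CPM in KO libraries, against 50.3, 83.5 and 71.2 CPM in control libraries, and its log2 fold change was 0.62 (SE 0.22) with an edgeR adjusted p = 0.382. Mllt10, Aff1 and Aff4, genes of elongation and Dot1l complex factors, had log2 fold changes of 0.67, 1.49 and 1.33. Of 27 tested Polycomb genes, which maintain Hox silencing, that p was reached by 5 higher and 1 lower, against the same 5.44% and 5.59% of all genes, and the median was 0.40, against 0.03. The lower 1 was Rbbp7, a histone-binding gene, with 417, 337 and 326 CPM in KO libraries, against 613, 536 and 525 CPM in control libraries, an edgeR adjusted p = 0.277 and a DESeq2 adjusted p of 0.00486, in a range of 0.00486 to 0.683 over the alternatives. Jarid2 and Phc3 had log2 fold changes of 0.70 and 1.27. In the retinoic acid pathway 9 of 17 genes were tested and 1 reached that p, against 5.44% of all genes that were higher. It was Rarb, a receptor gene, with 4.81, 7.76 and 15.2 CPM in KO and 2.41, 4.12 and 2.08 CPM in control libraries. Aldh1a1, which makes retinoic acid, had 102 to 116 CPM in KO and 45.96 to 103 CPM in control libraries, Rxrb and Rdh10 had log2 fold changes of 0.62 and 0.53, and all 3 overlapped between groups. Of these 54 tested genes, 0 were called by edgeR.

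Among 11 genes reported as targets of Hoxa9 or Meis1, edgeR called 0, and 4 higher and 1 lower had an unadjusted p under 0.05, against 5.44% higher and 5.59% lower of all tested genes. Their median log2 fold change was 0.22, against 0.03 over all genes. Sox4, a transcription factor gene of progenitors, had 68.9, 73.8 and 106 CPM in KO libraries, against 35.04, 43.6 and 41.8 CPM in control libraries, with an edgeR adjusted p = 0.255 and a DESeq2 adjusted p of 0.00654, in a range of 0.00654 to 0.618 over the alternatives. Cdk6, a cell cycle kinase gene of stem cell exit from quiescence, had 880, 803 and 1056 CPM in KO libraries, against 713, 490 and 652 CPM in control libraries. Pim1, a survival kinase gene, was the lower member, with 22.9, 33.3 and 23.8 CPM in KO and 59.8, 53.9 and 32.1 CPM in control libraries, where KO replicate 2 and control replicate 3 overlapped. Bcl2, which blocks cell death, had 68.8, 62.8 and 98.2 CPM in KO libraries, against 19.7, 46.7 and 48.1 CPM in control libraries. All 3 KO libraries lay above all 3 control libraries for Bcl2, Cdk6 and Sox4, that is, for 3 of 11 genes, against 10.7% of all tested genes.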

How the data were processed

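RNA was extracted with TRIZOL and made into TruSeq RNA libraries, per the labels' protocols. The authors deposited whole-number counts per gene, not normalized. Per the submitters' processing notes the build was mm10 and the tools included HISAT2 2.1, featureCounts 1.6.4, cutadapt 1.16.5, bcl2fastq 2.19 and DESeq2 2.11.40.6, without role, order or settings. Strand setting and treatment of multiply mapped reads are not given in the sources used here. The files hold no coordinates, so positions come from RefSeq GRCm38.p6, the same build, and lengths from GENCODE M21, and the gene models counted may differ, since 1465 symbols start with LOC118 and 2046 rows have assembler-style identifiers.

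Counts were analysed in R 4.3.3. Genes kept by filterByExpr (minimum count 10) were TMM-scaled (trimmed mean of M values) and compared in edgeR 4.0.16 (quasi-likelihood F test, KO against control, 6 libraries, 16022 genes), with Benjamini-Hochberg adjustment and a threshold of 0.05. The SE is the log2 fold change divided by the root of F. Levels between genes are CPM per kilobase of all annotated exon bases. No library pair of a group agreed within sampling noise (chi-square per gene at least 123). The steps were tested on simulated counts. Members and lists were chosen with earlier results of these data known. All tested Hox genes are named, with all TALE genes and up to 4 genes of lowest p per other list, and the results and sequences of some of these genes are not reported here. DESeq2 1.42.0, limma-voom (limma 3.58.1), other scalings and filters, a replicate block and leaving out each library were tried as alternatives.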

Additional observations from a re-analysis of the deposited data

How the results depend on the processing

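Over 13 alternatives, 0 of the 174 refitted Hox fold changes passed the adjusted threshold. The 11 that DESeq2 left without an adjusted p could not pass it. Of the 174, 160 kept their sign, and 14, spread over 7 of the 14 genes, changed it. Hoxa10 and Hoxb2 kept theirs in all 13, and Hoxa3, Hoxa4, Hoxa6, Hoxb3 and Hoxb6 in the 12 run for them, since the 5 CPM filter removed these genes. The count of Hox genes higher at an unadjusted p under 0.05 was 0 with no filter and 0 with a filter of 5 CPM in 3 libraries, under which 6 Hox genes were tested, and 0 to 1 with each library left out, being 0 without KO replicate 1, 2 or 3 or control replicate 3. Over all genes, DESeq2 called 192 higher and 329 lower at the adjusted threshold and the 5 CPM filter gave 1 lower. Leaving out each library gave 0 to 1 called higher, the 1 without control replicate 1. At an unadjusted p under 0.05 it gave 562 to 1339 higher and 573 to 1299 lower, with the lowest without KO replicate 3 (562 higher) and control replicate 1 (573 lower) and the highest without control replicate 3. Of the listed cofactors, regulators, reported targets and other transcripts of the Hox loci, DESeq2 called 2 higher and 1 lower. The target gene Sox4 was among the 2, and the lower 1 was Rbbp7. The cause of these shifts was not tested. The log2 ratio of summed levels was 0.25 for Hoxa (0.10 to 0.52 with each library left out) and 0.69 for Hoxb (0.37 to 0.95). Same-numbered libraries of the groups correlated at 0.069, -0.000249 and 0.055 in their deviations, against -0.094 to 0.043 for differently numbered ones. The labels do not say whether the numbers pair samples, and correlations this weak cannot decide it. With the replicate block 0 Hox genes were called, and an unadjusted p under 0.05 was reached by 835 higher and 762 lower genes. The 0.0440 to 0.0539 CPM that 3 counts are worth limits what can be said of the genes at 0.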
